A study of Homo sapiens with 19 samples.

Results

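A retained intron is an annotated intron that part of a gene's mature RNA keeps and part removes. The set described here holds every retained-intron event (RI) of the 3 splicing tables, 2252 introns of 1603 genes, out of 100239 splicing events of all 5 types. Each intron was taken from the end of its upstream exon to the start of its downstream exon. Of the 2252 introns, 1940 were present in all 3 tables. A single intron was listed for 1189 genes, and the most for 1 gene was 7. In 428 introns (19%) the interval overlapped another intron of the set, so such introns shared junction reads and were not independent.

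Introns are removed from pre-mRNA by the spliceosome, which reads short sequences at the 5′ and the 3′ splice site. Introns that stay in a polyadenylated RNA are typically short, GC-rich and flanked by weak splice sites. Such an RNA may be held in the nucleus, may be spliced later, or may reach the ribosome, where a stop codon inside the intron can send it to nonsense-mediated decay. Where the remaining reading frame is open, the intron can instead code for an extra stretch of protein.

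The cells were HMLE/Twist-ER, human mammary epithelial cells immortalized with TERT that carry the transcription factor Twist fused to an estrogen receptor. Untreated cells stood for the epithelial state (EPI), and cells given 20 nM tamoxifen, which switches Twist on, stood for the mesenchymal state (MES). In each state, cells that stably expressed a non-specific shRNA from a lentiviral vector (control) were set against cells that expressed an shRNA to the splicing regulator AKAP8 (knockdown). Poly(A) RNA was sequenced from 3 EPI control, 3 EPI knockdown, 3 MES control and 2 MES knockdown libraries. AKAP8-bound RNA was mapped by eCLIP with 2 replicates per state. The EMT and the tamoxifen treatment cannot be told apart, and the labels name no independent cultures or clones, so p-values measure the spread between these libraries. In bulk RNA, fewer cells of a kind and less RNA per cell cannot be told apart.

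The measure was the percent spliced in (PSI), here the share of the unspliced form among the unspliced and spliced forms that an event names. Other forms of the gene's RNA do not enter PSI, so overlapping introns of a gene can differ widely. PSI was computed from reads across the exon-intron boundaries and reads across the spliced junction. The libraries held 844082 to 1234055 RI junction reads each. AKAP8 junction reads per 1000000 reads of exon-skipping (SE) junctions were 11.4, 12.9 and 10.8 in EPI control and 5.74, 3.72 and 5.66 in EPI knockdown libraries. They were 15.9, 7.5 and 10.4 in MES control and 4 and 4.60 in MES knockdown libraries. On the same scale CDH1, the E-cadherin gene, stood at 67.0 ± 8.11 in the EPI control libraries and 3.25 ± 1.43 in the MES control libraries (SD, n = 3 each). COL1A1, a fibrillar collagen, stood at 6.64 ± 1.46 and 814 ± 259 (SD, n = 3 each). EPCAM, CDH2 and the markers of other cell types PTPRC, PECAM1 and CD3E had no SE event to read. The AKAP8 gene itself had no RI event.

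Most of these introns had a low PSI, with the spliced form the commoner. Over the 1683 introns that were present in all 3 tables and had a mean of at least 20 junction reads over the 11 libraries, the median PSI was 10.1%, with quartiles of 4.52% and 44.2%. In 1106 introns (65.7%) the median PSI over the 11 libraries was under 20%, and 481 of these were under 5%. At the other end, 399 introns (23.7%) had a median PSI of at least 50% and 213 (12.7%) of at least 90%. The 5 most retained introns with at least 100 reads were those of DHX9, an RNA helicase, PDHB, a subunit of pyruvate dehydrogenase, CD276, an immune checkpoint ligand, EIF2A, a translation initiation factor, and FLNA, the actin crosslinker filamin A. All 5 had group means between 99.3% and 100%, so the spliced form that the event names was nearly absent from these cells. The PDHB intron was 54 bases long, was a multiple of 3 and held no stop codon in frame.

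The level of retention differed with the place of the intron in the transcript used to place it. This was a transcript that splices the intron, the canonical one in 1537 introns (68.3%). Elsewhere it could be of another class, as for DHX9 (non-coding) and EIF2A (nonsense_mediated_decay). The part of this choice in the levels was not tested. Coding introns, 1779 of the 2252 (79.0%), had a median PSI of 7.88% (n = 1409 with enough reads). The median was 61.4% for introns in 5′ UTRs (n = 77), 87.1% for introns in 3′ UTRs (n = 82) and 81.5% for introns of non-coding transcripts (n = 69). Introns that Gencode v44 does not list as an intron had a median of 98.8% (n = 46). Within coding introns, 83.2% placed a stop codon in frame when read through. The median PSI was 7.41% in those with a stop codon (n = 1177) and 11.5% in those without (n = 232). It was 31.7% in the 86 introns that were both a multiple of 3 and free of a stop codon.

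**Figure D1:**
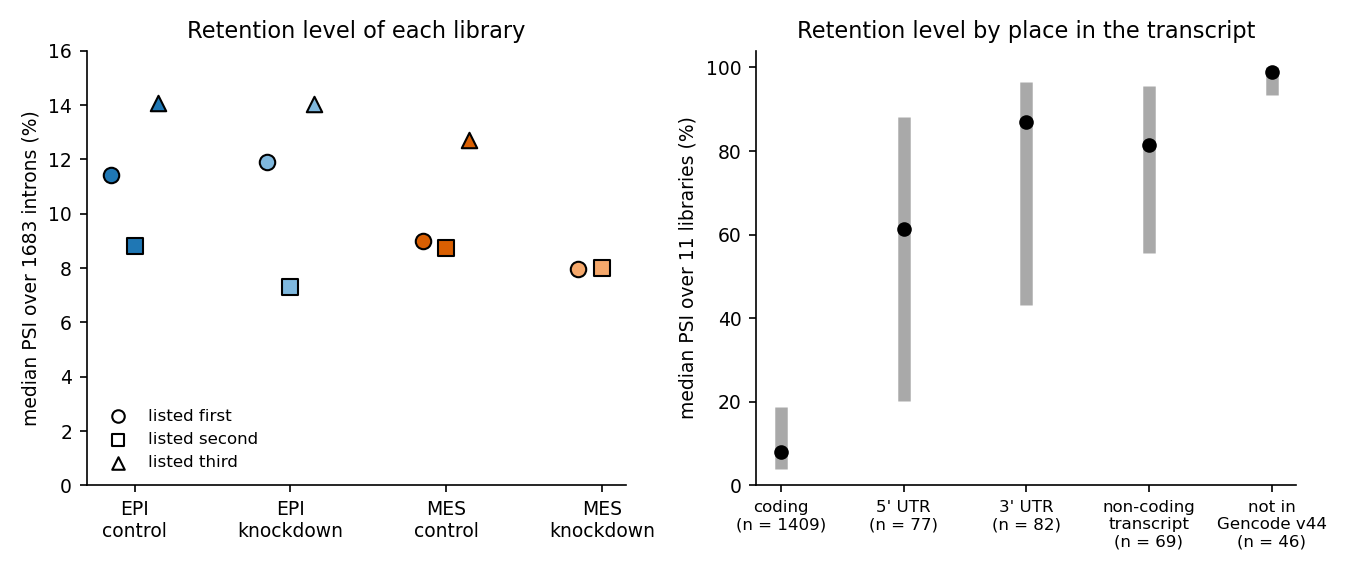
Level of retention, in percent PSI on both vertical axes. The left panel shows the median PSI of 1683 introns in each of the 11 libraries by group, with symbols for the place at which a library is listed. The right panel shows the median (point) and quartiles (bar) of PSI by place in the transcript, from 7.88% in coding introns to 98.8% in unannotated ones.

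Compared with 15714 other introns of the same canonical transcripts, the retained introns were short. Their median length was 338 bases against 696 bases, and their median GC content was 56.2% against 51.8%. Among introns of 80 to 1000 bases the GC content was 58.1% against 57.3%, a smaller gap. The last intron of the transcript made up 16.1% of the 2102 retained introns placed in a transcript and 6.64% of the others. The retained introns were numbered in a transcript that splices them, canonical or not, and the others in canonical transcripts only. These 16.1% and 6.64% are thus not like for like. A splice site score was the sum, over its bases, of the log2 of how often the other introns have that base there, relative to equal use of the 4 bases. A more usual site scores higher. The median 5′ score was 7.55 against 8.37, and the median 3′ score 8.57 against 9.35. The score was built from the other introns, all of canonical transcripts, so these medians too are not like for like. Introns with a median PSI of at least 50% scored 6.5 and 7.60. These are descriptions of sets chosen by annotation, and no test was made over introns.

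Nearly all introns had the usual ends. GT-AG introns numbered 2203 (97.8%), 35 were GC-AG and 5 AT-AC. Of all introns, 75.6% were covered by an exon of a transcript that Gencode v44 classes as retained_intron. Small RNA genes lay inside 15 introns, and 310 introns shared their interval with a gene on the opposite strand. Across the 1683 introns Spearman's rho with PSI was 0.05 for length, -0.01 for GC content, -0.15 for the 5′ score, -0.17 for the 3′ score and -0.33 for the number of junction reads. The introns of a gene and the libraries are shared in these figures, and PSI and the read number come from the same reads.

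The level also differed between libraries within a group. Median PSI was 11.4%, 8.81% and 14.1% in EPI control, 11.9%, 7.29% and 14.1% in EPI knockdown, 8.99%, 8.75% and 12.7% in MES control, and 7.96% and 7.99% in MES knockdown libraries. The third-listed library was the highest and the second-listed the lowest of each group of 3. Intron 11 of DDX5, an RNA helicase gene, was also highest in the third-listed libraries. It stood at 31.0%, 24.7% and 46.6% in EPI control and 11.6%, 20.5% and 31.9% in MES control libraries. The 3 third-listed libraries held 21198882 to 22491681 SE junction reads, and the MES knockdown libraries 26538917 and 28261544. The part of depth and of the library in the comparisons below was not tested beyond the fits without these libraries and with the library median as a covariate.

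An intron was called changed at an adjusted p under 0.05 and a difference in PSI of at least 10 percentage points. All adjusted p-values come from a quasi-binomial test of the 2 kinds of junction reads with limma-moderated dispersion and Benjamini-Hochberg adjustment over the RI events. In all, 1841 introns had enough reads for at least 1 comparison, 1559 for all 4, and 411 for none. At least 1 call was made for 27 introns. For a single intron an exact permutation test could not go below p = 0.1 with 3 against 3 libraries or 0.333 with 2 against 2.

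Knockdown of AKAP8 in EPI cells gave no called intron. Of 1759 introns tested 0 were called (0%) with the limma-moderated test, 25 passed at an unadjusted p under 0.05 and 10 points, 11 higher and 14 lower, and limma on the logit of PSI also called 0, with 24 at an unadjusted p under 0.05 and 10 points. The median difference was -0.19 points. The groups did not overlap in 137 introns (7.79%). The same test called 0.0588% of SE events, 0.0261% of mutually exclusive exons, 0% of alternative 3′ and 0.062% of alternative 5′ splice sites.

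Knockdown in MES cells lowered the retention of 5 introns and raised that of none. The 5 calls were 0.305% of 1641 introns tested. They lay in SNHG12 and LRRC75A-AS1, both long non-coding RNAs that host small nucleolar RNAs, in SPHK1, a kinase that makes sphingosine-1-phosphate, in ZDHHC4, a protein palmitoyltransferase, and in STAT2, a transcription factor of the interferon response. The introns of SPHK1 and STAT2 are coding and place a stop codon in frame, and that of ZDHHC4 lies in the 5′ UTR. The groups did not overlap in 592 introns (36.1%), so lack of overlap between 2 and 2 libraries was common. The same test called 0.0479% of SE events, 0.0304% of mutually exclusive exons, 0.0839% of alternative 3′ and 0.0644% of alternative 5′ splice sites.

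The SNHG12 intron, number 4 of 5, spans chr1:28906100-28906423 on the minus strand of GRCh37 and is 324 bases long. Its PSI was 60.9% and 68.1% in the MES control libraries of this comparison and 27.0% and 40.4% in the knockdown libraries. It fell by 30.8 points (adjusted p = 6.76e-05), and the groups did not overlap. In EPI cells the means were 66.0% ± 11.4 with the control shRNA and 62.2% ± 14.1 after knockdown (SD, n = 3 each), with overlapping libraries. The interaction between state and knockdown was -28.9 points with an adjusted p of 0.988, so a difference between the states was not shown.

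The LRRC75A-AS1 intron, 166 bases at chr17:16342729-16342894 on the plus strand, had the most reads of the 5, 1355 per library. Its PSI was 40.5% and 42.6% in MES control and 27.1% and 29.4% in knockdown libraries, and it fell by 13.3 points (adjusted p = 0.00029). STAT2 intron 6 stood at 26.2% and 13.0% in control and 5.43% and 11.7% in knockdown libraries. It fell by 11 points (adjusted p = 0.0279), and the groups did not overlap. The differences in EPI cells were -2.62 points for LRRC75A-AS1 and -0.39 points for STAT2 (adjusted p = 1 for both).

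The other 2 calls rested on libraries that disagreed. SPHK1 intron 2 stood at 47.2% and 69.7% in MES control and at 48.1% and 15.7% in knockdown libraries. Its call of -26.5 points (adjusted p = 0.00638) thus came with overlapping groups, and in EPI cells its mean was 33.3% in control and 51.6% in knockdown libraries. The ZDHHC4 intron stood at 94.0% and 72.4% in control and 64.7% and 12% in knockdown libraries (-44.8 points, adjusted p = 0.0147), with about 20 reads per library.

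**Figure D2:**
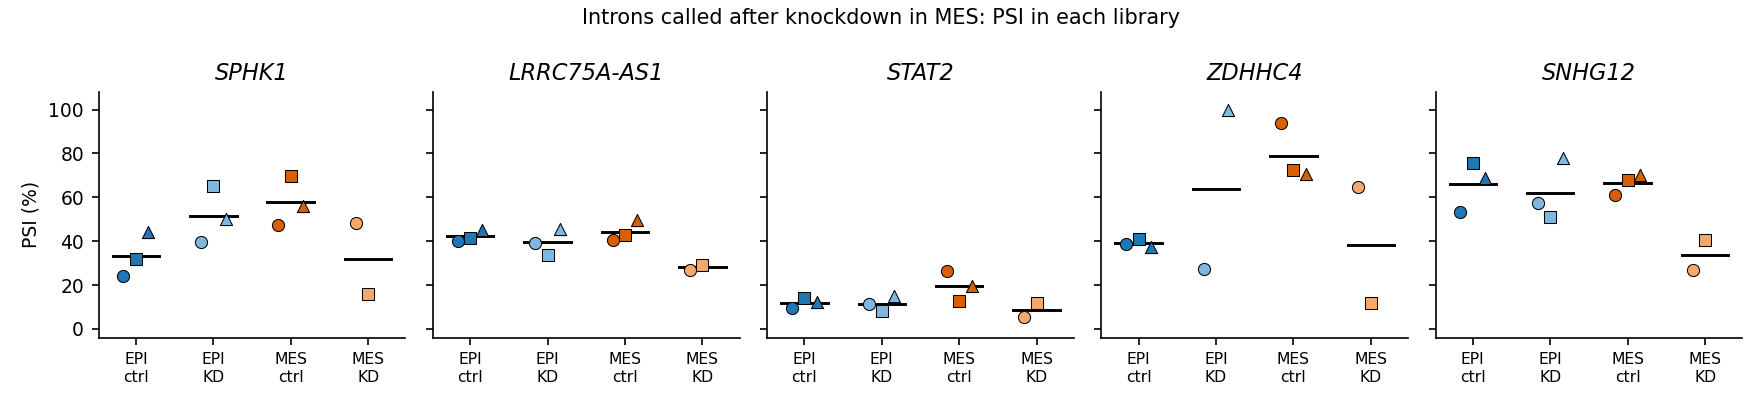
PSI in percent of the 5 introns called in MES knockdown against MES control cells, 1 panel per intron, with the 4 groups on the horizontal axis. Each symbol is a library and the black line the group mean. In SNHG12 both MES knockdown libraries (27.0% and 40.4%) lie below the other 9.

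The 5 calls depended on the libraries and the model. Leaving out either MES control library gave 0 calls, and leaving out either MES knockdown library gave 3. Each of these fits leaves 1 library alone in its group, which was assumed to vary like the other group. Without the first or the second MES control the difference was still -34.4 and -27.2 points in SNHG12 and -14.4 and -12.2 points in LRRC75A-AS1, while it was -4.39 and -17.7 points in STAT2. With the third MES control, which the knockdown table leaves out, 2 were made. A fit of the 4 groups together and limma on the logit made 0, with 61 and 38 introns at an unadjusted p under 0.05 and 10 points against 62 in the first test. With the median PSI of each library as a covariate 5 were called, 1 higher and 4 lower, and 3 of them were among the first 5. The covariate entered the p-value only, and the 10-point cut and the direction used differences not adjusted for it. No intron was called for a knockdown effect that differs between the states, 0 of 1683 (0%), with 38 at an unadjusted p under 0.05 and 10 points. Of the 4 introns called in MES cells and also tested in EPI cells, 3 had a difference in the same direction there and none reached 10 points in that direction.

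The EMT in control cells changed 6 introns, 3 higher and 3 lower in MES, which is 0.343% of 1751 tested. The same test called larger shares of the other event types. These were 1.4% of SE events, 2.24% of mutually exclusive exons, 1.27% of alternative 3′ and 4.29% of alternative 5′ splice sites. Retention rose in OCEL1, in IMP4, a component of the U3 particle that cleaves pre-ribosomal RNA, and in TMEM138, a membrane protein needed for cilia. It fell in NFATC4, a calcineurin-responsive transcription factor, in ATXN2L, an RNA-binding protein of stress granules, and in P3H1, an enzyme that hydroxylates proline in collagen. In all 6 the groups did not overlap, which held for 275 of all introns tested (15.7%). At an unadjusted p under 0.05 and 10 points 105 introns passed, 33 higher and 72 lower.

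TMEM138 had the smallest adjusted p. Its intron 2 lies in the 5′ UTR, is 117 bases long and spans chr11:61131788-61131904 on the plus strand. PSI was 58.1%, 66.7% and 64.5% in EPI control and 97.0%, 93.0% and 88.1% in MES control libraries, a rise of 29.6 points (adjusted p = 0.00216). In knockdown cells the rise was 23.3 points (adjusted p = 0.000308), from 71.8% ± 5.61 (SD, n = 3) to 95.1% ± 1.75 (SD, n = 2).

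ATXN2L intron 22, the last of its transcript, is 605 bases long at chr16:28847444-28848048 on the plus strand, with a stop codon in frame. PSI was 91.2%, 93.0% and 93.6% in EPI control and 63.2%, 75.1% and 76.4% in MES control libraries, a fall of 21.0 points (adjusted p = 0.0268). In knockdown cells it fell by 31.4 points (adjusted p = 0.000308), to 48.7% and 58.0%. The 4 groups were ordered EPI control, EPI knockdown (84.7% ± 5.65, SD, n = 3), MES control and MES knockdown. In the 2 knockdown comparisons the differences were -7.85 points (adjusted p = 1) and -15.8 points (adjusted p = 0.19), neither called. A second intron of the set starts at the same 5′ site, ends at 28848071 and shares reads with it. Its PSI was 95.9% in EPI control and 91.1% in MES control libraries, a difference of -4.89 points (adjusted p = 0.494). In knockdown cells it differed by -12.4 points (adjusted p = 0.135). Neither was called, so the size of the fall differed with the spliced form that the event names. A gene on the opposite strand overlaps this intron, and its part in the reads was not tested.

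P3H1 intron 7, 174 bases at chr1:43220662-43220835 on the minus strand, was lower in all MES libraries. PSI was 25.8%, 21.1% and 23.4% in EPI control and 8.04%, 5.65% and 11.1% in MES control libraries, a fall of 15.2 points (adjusted p = 0.0451). In knockdown cells it fell by 14.0 points (adjusted p = 0.000178), to 4.84% and 4.71%.

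The remaining 3 introns had 40 to 93 reads per library in the control groups. In the EPI knockdown group OCEL1 had 23.3 and NFATC4 only 20. OCEL1 intron 2 stood at 30.8%, 40.7% and 45.9% in EPI control and 90.2%, 86.7% and 73.9% in MES control libraries (44.5 points, adjusted p = 0.0451). IMP4 intron 1, in the 5′ UTR, stood at 11.1%, 13.2% and 14.3% against 41.9%, 47.1% and 41.7% (30.7 points, adjusted p = 0.0461). NFATC4 intron 9, its last, stood at 84.1%, 83.3% and 66.7% against 11.5%, 23.8% and 39.1% (-53.2 points, adjusted p = 0.047). In knockdown cells their differences kept the direction, at 25.6, 11.6 and -27.5 points, without a call.

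**Figure D3:**
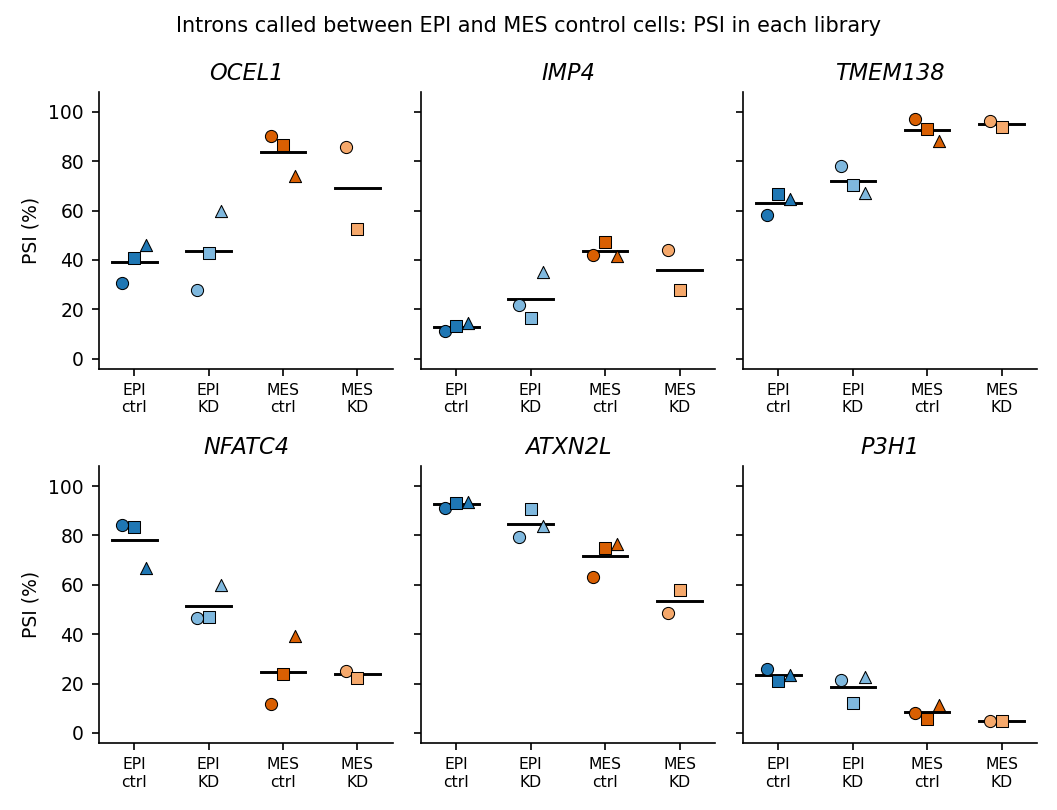
PSI in percent of the 6 introns called in MES against EPI control cells, 1 panel per intron, with the 4 groups on the horizontal axis. Each symbol is a library and the black line the group mean. In TMEM138 the 5 MES libraries lie between 88.1% and 97.0%, above the 6 EPI libraries.

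The ends of some of these introns show what the splice site scores summarise. Each sequence is read from GRCh37, 5′ to 3′ on the strand of the gene. The first lines give 5′ ends, 10 bases of exon and 20 of intron, with the first 6 intronic bases in capitals. AHSA2, described further on, has the most usual 5′ site of the named introns (score 11.6), and RBM5 (2.12) and IMP4 (3.74) the least usual of those named with a call.
AHSA2, chr2:61412744-61412773, plus strand: tgtaaaggagGTAAGTaactccctaagcta
ATXN2L, chr16:28847434-28847463, plus strand: cacccccaagGTGAGCagcctggccaggcg
SNHG12, chr1:28906404-28906433, minus strand: gtgctttaagGTAAAGttgatcagcttaat
TMEM138, chr11:61131778-61131807, plus strand: tccctcagtgGTAGGGagacagccaggagc
IMP4, chr2:131100526-131100555, plus strand: tgtttcggagGTCCGGggcgcgtgaagtgc
RBM5, chr3:50138029-50138058, plus strand: agccaatcagGTTGCTtcactcaccaagtc
The next lines give 3′ ends, 20 bases of intron and 10 of exon, with the last 3 intronic bases in capitals. The RBM5 end holds a run of pyrimidines (score 12.4), and the P3H1 end lacks one (3.59).
RBM5, chr3:50140496-50140525, plus strand: aattacttcttttcttaCAGaaaaagttgg
SNHG12, chr1:28906090-28906119, minus strand: gtggtgtttttttctttTAGattcatgtta
P3H1, chr1:43220652-43220681, minus strand: cagagcggctgtgctcaTAGgtcagaacgg

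The number of called introns in control cells changed with the libraries used. It was 36 when the third-listed MES control library was left out, 0 when the first EPI control was, and 1 when the third EPI control or either other MES control was. With the median PSI of each library as a covariate it was 51, 20 higher and 31 lower, among which all 6 were found. Here too only the p-value was adjusted for the covariate, and the differences and their directions were not. Of these 51, 47 had the same direction in knockdown cells, a share not counted over all introns. In the same fit 12 were called there. Among these was SPHK1 with the opposite direction, at 24.4 points in control and -19.7 points in knockdown cells. Without the 3 libraries of highest median PSI 41 were called, 8 higher and 33 lower. limma on the logit called 0, with 88 at an unadjusted p under 0.05 and 10 points.

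In knockdown cells the EMT changed 21 introns, 4 higher and 17 lower in MES. This was 1.26% of 1667 introns tested. The same test called 1.34% of SE events, 0.699% of mutually exclusive exons, 1.37% of alternative 3′ and 2.72% of alternative 5′ splice sites. The median difference over all tested introns was -1.12 points with 67.8% below 0, against -0.33 points and 58.1% in control cells. The groups did not overlap in 500 introns (30.0%) and in 19 of the 21. At an unadjusted p under 0.05 and 10 points 131 passed, 20 higher and 111 lower. With the median PSI of each library as a covariate of the p-value 18 were called, and 11 of them were among the 21. By their unadjusted differences 9 were higher and 9 lower. Without the second-listed EPI knockdown library, which had the lowest median PSI of all (7.29%), 131 introns were called, 7 higher and 124 lower. Without the third EPI knockdown library 6 were called, and without the first or second MES knockdown library 3 and 10. limma on the logit called 0, with 96 at an unadjusted p and a difference of this size.

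The 4 rises were in ISCU, the scaffold on which iron-sulfur clusters are built, in NUDT22, a Nudix hydrolase, in TMEM138 and in HNRNPM, a splicing regulator of the hnRNP family. ISCU intron 2 stood at 45.7%, 20.0% and 41.5% in EPI and 70.2% and 66.8% in MES knockdown libraries (32.8 points, adjusted p = 0.0372). NUDT22 intron 1, in the 5′ UTR, stood at 19.6%, 12.5% and 25.1% against 59.3% and 43.1% (32.1 points, adjusted p = 0.0114). HNRNPM intron 6, 117 bases without a stop codon in frame, stood at 46.6%, 39.8% and 45.2% against 52.9% and 57.4% (11.3 points, adjusted p = 0.0114), with 2711 reads per library. These groups were separate in every case, and in control cells the differences were 19.2, 16.1 and 6.55 points, none called.

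The largest fall was in SHMT2. This gene encodes the mitochondrial serine hydroxymethyltransferase, and its intron fell by 50.3 points (adjusted p = 0.000308), from 62.1%, 70.5% and 85.7% to 19.3% and 25.7%. RBM5, an RNA-binding splicing factor, fell by 35.5 points (adjusted p = 0.000315) at intron 6, from 44.3%, 68.6% and 53.1% to 16.4% and 23.3%. DGCR8, the RNA-binding partner of Drosha in microRNA processing, fell by 22.5 points (adjusted p = 0.0493) at intron 4, from 25%, 29.4% and 50% to 14.1% and 10.6%. In these the 2 MES libraries lay below the 3 EPI libraries.

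CENPT, a kinetochore protein, fell by 27.9 points (adjusted p = 0.0146) at intron 11, from 48.0% ± 13.4 (SD, n = 3) to 20.1% ± 3.58 (SD, n = 2). AHSA2, a relative of an HSP90 co-chaperone, fell by 32.7 points (adjusted p = 0.0146), and PRMT2, an arginine methyltransferase, by 23.4 points (adjusted p = 0.0436). VEGFA, the vascular endothelial growth factor, fell by 17.7 points (adjusted p = 0.00768), from 26.8%, 31.0% and 32.5% to 14.5% and 10.2%. Its interval of 5622 bases is intron 5 of 5 in the transcript used to place it. VEGFA forms spliced at other sites do not enter this PSI. C5orf45 fell by 32.5 points (adjusted p = 0.0419), with 60 to 73 reads per library in these groups and SQSTM1 on the opposite strand. RBM5 and CENPT also share their interval with an opposite-strand gene, RBM5-AS1 and TSNAXIP1, and the part of these genes was not tested.

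The remaining falls included 2 snoRNA hosts. SNHG12 fell by 28.5 points (adjusted p = 0.0184) and SNHG1 by 13.3 points (adjusted p = 0.0184). SPHK1 fell by 19.7 points (adjusted p = 0.0438) with overlapping groups. MICALL2 fell by 18.0 points, also with overlap. THOC1, a subunit of the TREX export complex, fell by 15.7 points. TPCN1, an endolysosomal channel, and MAT2A, which makes S-adenosylmethionine, had differences of -11.7 and -10.5 points. P3H1 and ATXN2L complete the list.

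The control and knockdown comparisons of the EMT share no library, so each can be read in the other. EPI control and EPI knockdown libraries had the same order of median PSI by place, so the comparisons are not shown to be independent. Over all introns tested 58.1% and 67.8% of the differences were below 0. The share of all introns with the same direction in both was not counted. All 6 introns called in control cells had the same direction in knockdown cells, all by at least 10 points, and 3 were called there. Of the 21 called in knockdown cells 19 had the same direction in control cells, 15 by at least 10 points, and the same 3 were called. The 2 exceptions were SPHK1, higher by 24.4 points in control cells (adjusted p = 0.342), and SNHG12, with a difference of 0.37 points (adjusted p = 0.963). Among introns that passed at an unadjusted p under 0.05 and 10 points in control cells, 87 of the 101 tested in knockdown cells had the same direction.

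**Figure D4:**
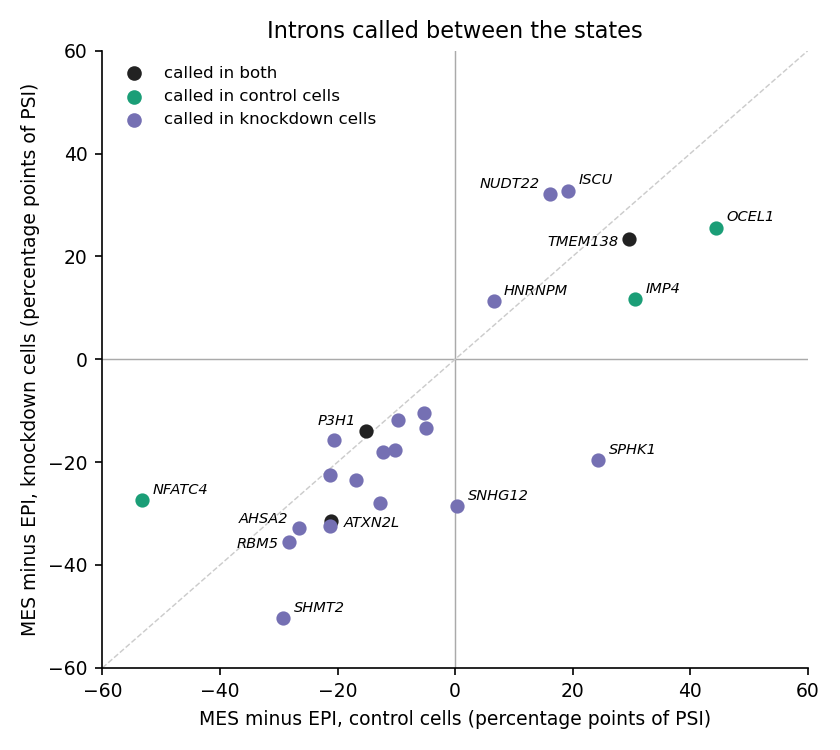
Difference in PSI (MES minus EPI, percentage points) in control cells on the horizontal axis and in knockdown cells on the vertical axis, for the introns called in either. Points at the lower left and upper right share a direction. SPHK1 lies at 24.4 and -19.7 points, and SNHG12 near 0 and at -28.5 points.

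A change in PSI can come from either form of the RNA, and the named introns differed in this. For TMEM138 the unspliced reads per 1000000 SE junction reads were 9.59 ± 1.16 in EPI and 23 ± 2.92 in MES control cells (SD, n = 3 each). Its spliced reads were 2.83 ± 0.596 and 0.882 ± 0.486. ATXN2L differed in the opposite way, with unspliced reads at 21.3 ± 1.58 in EPI and 8.84 ± 2.73 in MES control cells and spliced reads at 0.857 ± 0.179 and 1.67 ± 0.0937. These differences between means exceeded the SD of each group, and no separate test of the reads was made.

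For P3H1 the unspliced reads stayed within their spread, at 3.39 ± 0.597 in EPI control, 3.33 ± 1.21 in MES control and 4.09 ± 0.876 in MES knockdown cells. The spliced reads stood at 5.53 ± 0.75, 18.4 ± 1.03 and 40.6 ± 7.87 in the same groups. The lower PSI of P3H1 in MES cells thus came with more spliced RNA and a like amount of unspliced RNA. For SNHG12 in MES cells the unspliced reads were 7.75 ± 2.82 in control and 3.84 ± 0.274 in knockdown libraries, and the spliced reads 1.96 ± 0.69 and 3.95 ± 1.37, with 3 and 2 libraries.

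**Figure D5:**
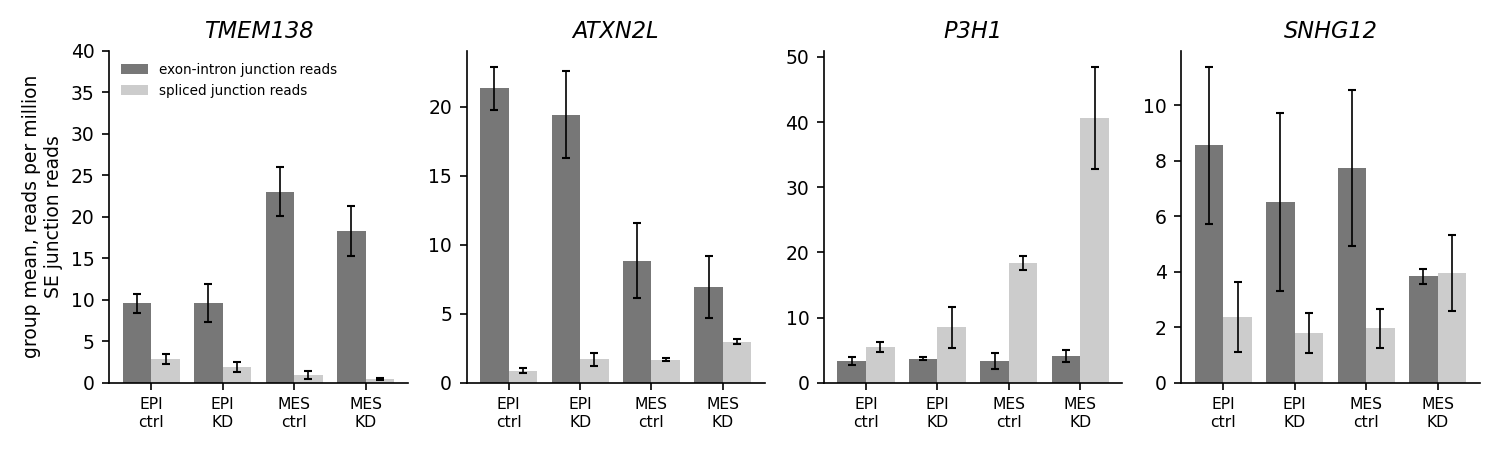
Junction reads per 1000000 SE junction reads that keep (exon-intron) or remove (spliced) the intron, for 4 introns in the 4 groups. Bars are group means and error bars the SD over 3 libraries (2 in MES knockdown). P3H1 shows spliced reads from 5.53 in EPI control to 40.6 in MES knockdown at similar unspliced reads.

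Among the 27 introns with a call, 18 were coding (79.0% of the whole set was), and 17 of these place a stop codon in frame when retained (83.2% of coding introns did), the exception being HNRNPM. In the other 9, 4 lay in a 5′ UTR and 5 in a non-coding transcript. A retained_intron transcript of Gencode v44 covered 23 of the 27, and 75.6% of the whole set. These counts are too small to set the called introns apart from the set.

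Called introns were counted in groups of related genes, beside shares of 0%, 0.305%, 0.343% and 1.26% called over all introns in the 4 comparisons. At these shares a group of 40 introns would hold fewer than 1 call, so a group without one shows nothing about its genes. Of 24 introns in core spliceosome genes, RBM5 was the single call among the 22 tested in knockdown cells between states, with a median of -2.83 points against -1.12 over all introns. The list of snoRNA host genes held 13 introns and left out LRRC75A-AS1, which was also called in MES knockdown. Of these 13, 1 was called in MES knockdown (11 tested) and 2 in the EMT of knockdown cells (11 tested). The medians of the list were -1.46 and -2.76 points against -0.29 and -1.12 over all introns. Of 8 introns in hnRNP genes, HNRNPM was the single call. No intron was called in CLK, SR and TRA2 genes (17 introns), DEAD and DEAH box helicases (31), cytosolic ribosomal protein genes (40), NMD factors (3), oxidative phosphorylation subunits (12), EMT splicing regulators (6) or epithelial junction and EMT genes (8), in any of the 4 comparisons.

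Values in these groups show how different the levels can be. Ribosomal protein introns had a median PSI of 3.52%, but the intron of RPL8 with most reads stood at 95.7% ± 0.277 (SD, n = 3) in the EPI control libraries and 95.4% ± 0.0171 (SD, n = 2) in the MES knockdown libraries. SRSF5 intron 4, in a gene for an SR splicing factor, stood at 10.2% ± 2.81 in EPI control and 8.52% ± 1.2 in MES control libraries (SD, n = 3 each). UQCRQ, a subunit of respiratory complex III, stood at 3.53% ± 0.818 and 3.54% ± 0.404 (SD, n = 3 each) in these groups.

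FN1, the fibronectin gene, had the most reads of the introns named. Its 93-base intron 40, without a stop codon in frame, stood at 24.2% ± 1.3 in EPI control and 25.1% ± 0.187 in MES control libraries (SD, n = 3 each), with 35554 and 113716 reads per library. The epithelial splicing regulator ESRP2 had an intron at 4.98% ± 0.647 (SD, n = 3) in EPI control libraries with 299 reads, and at 5.31% ± 2.32 (SD, n = 3) in MES control libraries with 22.7 reads.

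AKAP8L, the paralog of AKAP8, had 2 introns in the set. The 102-base intron 4 has no stop codon in frame, and stood at 76.2% ± 3.05 in EPI control and 85.7% ± 4.32 in MES control libraries (SD, n = 3 each). The difference was 9.42 points (adjusted p = 0.331). Its difference in knockdown cells was 12.8 points (adjusted p = 0.0843). The groups did not overlap in either comparison. The difference under AKAP8 knockdown was -0.59 points in EPI and 0.34 points in MES cells, with overlapping groups. The other intron of AKAP8L, with 28.7 reads per library, differed by -35.8 points in control cells (adjusted p = 0.151) and by -36.0 points in knockdown cells (adjusted p = 0.295).

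AKAP8 eCLIP peaks lay in few of these introns. A peak of at least log2 2 over input and a −log10 adjusted p of at least 3 lay, on the same strand, in 37 introns in EPI cells (1.64%) and in 13 in MES cells (0.577%), and 8 introns had one in both. Among the other introns of the same transcripts the shares were 2.78% and 1.73%. Per 100 kb of intron the retained set held 6.17 peaks in EPI and 2.40 in MES, and the others 7.20 and 7.36. Among introns of 80 to 1000 bases the order turned in EPI cells, where 1.07% of the retained (18 introns) and 0.567% of the others (50) held a peak. In MES cells these shares were 0.237% and 0.272%, which rest on 4 and 24 introns. Per 100 kb these introns held 6.95 against 4.08 EPI peaks and 1.53 against 2.22 MES peaks. Overlapping retained introns counted the same EPI peaks more than once, as in TMEM91, EIF3B, ATXN2L, CDK10 and ANO9. No count without such repeats was made, so the turn in EPI cells is not shown to hold without them. The peaks were merged over replicates, so these counts have no replicate error, and peaks can be found only in RNA that is expressed in that state.

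Introns with many peaks were found in ABHD17A, a depalmitoylase, with 7 in EPI and 10 in MES, and in CSNK1D, casein kinase 1 delta, with 6 in each state. Both stood below 20% PSI, at 6.36% ± 3.83 and 7.58% ± 0.804 in EPI control libraries (SD, n = 3 each). A shorter ABHD17A intron with the same start coordinate held 6 of these peaks in each state and stood at 91.0% ± 8.11 (SD, n = 3), with 36.3 reads per library. JMJD7-PLA2G4B, a read-through gene, held 8 EPI and 2 MES peaks in an intron with a median PSI of 100% and 43 reads per library, and was listed only in the table of the MES knockdown. A pair of overlapping introns of ANO9, a TMEM16-family membrane protein, held the same 7 EPI peaks and stood at 61.9% ± 17.8 and 97.6% ± 2.38 in EPI control libraries (SD, n = 3 each). Many peaks thus lay in weakly and in strongly retained introns. LSS, the lanosterol synthase gene, held 4 EPI peaks in an intron at 89.9% ± 1.93 (SD, n = 3). In EPI cells the 32 introns tested with an EPI peak had a median knockdown difference of 0.02 points, from -22.1 to 5.55, against -0.20 points in introns without. In MES cells the 11 with a MES peak had a median of -1.37 points, from -4.25 to 4.29, against -0.29 points. None was called or passed at an unadjusted p under 0.05 with a difference of 10 points in its own state's comparison.

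Of the 27 introns with a call, 2 held an EPI peak and none a MES peak. The ATXN2L peak of 90 bases at chr16:28847530-28847619 had a log2 of 3.85 over input and 8 runs of at least 3 G. VEGFA held 2 peaks, with log2 values of 3.96 and 2.86. Their first 30 bases are shown in the direction of the RNA because they are the only AKAP8 peaks in called introns, with runs of at least 3 G in capitals.
ATXN2L, chr16:28847530-28847559, plus strand: ggaagagctgaGGGGctgcaggtGGGGcag
VEGFA, chr6:43748727-43748756, plus strand: ggcattgctggtccaGGGttGGGGtgaatg
VEGFA, chr6:43747209-43747238, plus strand: cgtgttaaGGGGcaggtaggatGGGGtGGG
A motif of exactly 3 G was counted on both strands of all introns, and longer runs of G do not match it. This motif, GGG with an A or a T on each side, occurred in 81.4% of retained introns on the sense strand and 82.3% on the antisense strand. In the other, longer introns it occurred in 87.8% and 88.1%. Per 100 bases the retained introns held 0.694 matches on the sense and 0.661 on the antisense strand, and the others 0.641 and 0.582. A match of these letters is a description of the sequence and not of binding.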

How the data were processed

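RNA libraries were stranded, poly(A)-selected and paired-end. Per the labels and methods, the authors aligned reads to GRCh37 with STAR and counted unique junction reads per event with rMATS on Gencode v24. The deposited RI tables hold these reads for each library, joined in 1 field per group without replicate numbers, so libraries are named by their place. PSI was the length-normalized share of exon-intron reads. The authors' p-values and FDR were left unused, as were 30 columns holding their PSI of each sample and their gene table, which holds comparisons only. For eCLIP, the authors deposited peaks merged over the 2 replicates, each with its log2 enrichment over input and a −log10 adjusted p.

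An intron was tested at a mean of at least 20 junction reads per library. The test was a quasi-binomial likelihood-ratio F test, with dispersion moderated by limma 3.58.1 (R 4.3.3; robust trend on reads of the rarer form, at least 1) and Benjamini-Hochberg adjustment over the RI events of a comparison. Introns under 10 reads of the rarer form took the trend value. The cutoffs were the study's, an adjusted p under 0.05 and 10 percentage points. The script was tested on simulated data. MES knockdown was compared with the 2 MES controls of its table, and the EMT in knockdown cells joined the 2 knockdown tables. Annotation came from Gencode v44 on GRCh37. Total RI junction reads were 844082 to 1234055 per library. At the minimum of 20 reads a PSI is imprecise.

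Named introns were all those called in the knockdown comparisons, the 10 largest called rises and falls without overlap in each EMT comparison, the 5 most retained, and up to 3 per gene list. MICALL2, THOC1, TPCN1 and MAT2A, and the ABHD17A, CSNK1D, JMJD7-PLA2G4B, ANO9 and LSS introns, were named after their values were seen. The introns, gene lists and tests were chosen with earlier results of these data known. Alternatives covered the read minimum, the dispersion trend, limma on the logit of PSI, 1 fit of the 4 groups, adjustment over all 5 event types, the plain share of reads, each library left out, and, added after seeing the data, the library median PSI as a covariate and the fit without the 3 libraries of highest median PSI.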

Additional observations from a re-analysis of the deposited data

How the results depend on the processing

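The number of called introns depended on the libraries and the model. The difference in PSI could change only with other libraries or the plain share of reads, so the remaining alternatives could not test its direction. The called results were also chosen for a difference of at least 10 points in these same libraries. Over 28 called results of named introns and their 371 alternative values, 207 kept the call, 164 lost it in the same direction and 0 reversed. In EPI knockdown 0 introns were called under every alternative. In MES knockdown, 5 introns became 3 at a minimum of 50 reads, 3 with adjustment over all 5 event types, 2 with 3 MES controls, 0 with limma on the logit and 0 with 4 groups in 1 fit, and leaving out 1 library gave 0 to 3. The library median PSI as a covariate gave 5 there, 1 higher and 4 lower, 3 of them shared. In every comparison this covariate entered the p-value only, and the differences were not adjusted for it. In the EMT of control cells, 6 became 2 with a trend that was not robust, 0 with limma on the logit, 18 with adjustment over all 5 event types, 51 with the library median PSI as a covariate and 41 without the 3 libraries of highest median PSI, and leaving out 1 library gave 0 to 36. In the EMT of knockdown cells, 21 became 0 with limma on the logit, 8 with 4 groups in 1 fit and 6 without the 3 libraries of highest median PSI, and leaving out 1 library gave 3 to 131. The covariate gave 18, 9 higher and 9 lower, 11 of them shared. The difference of the knockdown effect gave 0, and 0 to 1 with 1 library left out, the 1 without the second-listed EPI knockdown library. The cause of these changes was not tested. With 1 MES control or knockdown library left out, the lone library was assumed to vary like the others. Peaks of at least log2 3 lay in 35 introns in EPI and 10 in MES. No paired analysis was possible because the tables carry no replicate numbers. Introns under 20 reads, 411 in all, could not be judged.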
